A study of Mus musculus with 6 samples.

Results

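RNA bound to YTHDF2 was set against unselected RNA in mouse cerebellar granule cells (GCs), excitatory neurons that are the most numerous cells of that structure. RNA immunoprecipitation (RIP) with an anti-YTHDF2 antibody gave 2 libraries (YTHDF2 RIP), RIP with an anti-YTHDF1 antibody gave 2 (YTHDF1 RIP), and RNA taken without antibody gave 2 (input). All 6 libraries came from wildtype C57BL/6 mouse cerebella at postnatal day 8 according to the labels, trypsin-dissociated, with no sort of the cells named. The comparison rests on the 4 YTHDF2 RIP and input libraries. Of 52550 gene identifiers in the deposited table, 11220 had a mean of at least 1 FPKM (mapped fragments, scaled for transcript length and for the total of the library) over those 4 libraries, and these were compared. Values were compared as log2(FPKM + 1), which understates the change of low genes, with limma on all 6 libraries and Benjamini-Hochberg adjustment over the 11220 genes. A gene was called higher or lower at an adjusted p under 0.05. The paper says in general that its experiments had independent biological replicates, in a larger number than the 2 libraries per group here. Whether these libraries came from separate animals or cultures is not stated. The p-values therefore measure the spread between these libraries only, which may be technical. No library made with a nonspecific antibody was analysed here.

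YTHDF2 is a cytoplasmic protein that reads N6-methyladenosine (m6A), the most common internal modification of mRNA, and brings the CCR4-NOT deadenylase to the marked transcript, which shortens its life. The mark is laid down by the METTL3-METTL14 complex and its partners, can be removed by ALKBH5 and FTO, and is densest near stop codons and in long internal exons. GC precursors of the early postnatal cerebellum divide under Sonic hedgehog, then leave the cell cycle, extend axons and migrate inwards, and YTHDF proteins have been studied in these cells for their part in axon growth.

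The YTHDF2 RIP libraries listed 9688 and 12627 genes at 1 FPKM or more, against 9857 and 10189 in input. Over tested genes the replicates correlated at r = 0.83 for YTHDF2 RIP and 0.95 for input. The mitochondrial genome supplied 0.0892% and 0.886% of the summed FPKM of YTHDF2 RIP, against 18.4% and 18% of input, and nuclear coding genes 11.3% and 18.9%, against 7.71% and 8.26%. The 10 highest genes held 74.4% to 86.5% of the sum in these 4 libraries. Since FPKM is a share of a library's total, a gene's change is relative to the other genes, and the median change of all tested genes was 0.23 on the log2 scale. Sequencing depth is not recoverable from these values. GC markers summed to 1070 and 1190 FPKM in YTHDF2 RIP, against 519 and 657 FPKM in input, with *Gabra6*, which marks mature GCs, between 0 and 0.684 FPKM in these 4 libraries. Markers of other cerebellar cells were present too: those of astrocytes and Bergmann glia summed to 368 and 374 FPKM in YTHDF2 RIP, against 416 and 420 FPKM in input, and those of Purkinje cells to 67.8 and 90.6 FPKM, against 112 and 136 FPKM. A sum of bulk RNA does not separate the number of cells of a type from the RNA per cell. The difference between RIP and input is one of recovered RNA and measures neither.

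Against this background, 1312 genes (11.7%) were higher and 758 (6.76%) lower in YTHDF2 RIP than in input. Without a test, 2462 genes (21.9%) exceeded input over 2-fold in both same-numbered pairs and 1217 (10.8%) were under 0.5 of it. With the replicate number as a block, 2168 genes (19.3%) were higher and 1219 (10.9%) lower. Deviations of same-numbered YTHDF2 RIP and input libraries correlated at -0.14. Crossing the pairing, an alternative chosen after seeing the data, gave 2549 and 1487. A lower p with the block therefore does not rest on a shown pairing of RIP and input. Without YTHDF2 RIP replicate 2 the counts were 435 higher and 554 lower, and without YTHDF2 RIP replicate 1 they were 1822 and 500. Each input library was needed: without input replicate 1 only 1 gene was called higher (*Rnf26*, with 4.32 and 0.134 FPKM in input) and 8 lower, and without input replicate 2 none, although 1379 were higher and 844 lower there at an unadjusted p under 0.05 in limma. Rescaling each library to 1 common FPKM total (TPM-like scaling) gave 2241 higher and 227 lower, rescaling to the total of nuclear coding genes 1202 and 1109, and rescaling by the median ratio over tested genes (median-of-ratios scaling) 1025 and 1326. The change of called genes had a median of 1.73 among those higher and -1.75 among those lower. All 1312 higher genes had both RIP values above both input values, and all 758 lower ones had both below. Such separation is thus no further evidence for a called gene. Because a gene low in input enters only when it is high in RIP, counts over gene groups are given for members with a mean input of at least 2 FPKM, which pass the filter whatever their RIP values. Of all 7149 such genes, 562 (7.86%) were higher and 748 (10.5%) lower, and their median change was -0.13. The counts over these genes were 1067 and 226 with TPM-like scaling, 405 and 1266 with median-of-ratios scaling, 717 and 488 without YTHDF2 RIP replicate 1, and 180 and 546 without replicate 2. Medians of gene groups are given relative to that value.

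The largest rises among coding genes ran from 3.33 to 4.83 on the log2 scale over 25 genes, of which 6 had a mean input under 2 FPKM, *Zbtb22* and *Bsn* among them. *Zbtb22*, which encodes a BTB zinc finger transcription factor, had 50.3 and 27.8 FPKM in YTHDF2 RIP, against 0.408 and 0.296 FPKM in input (log2 change 4.83 ± 0.54 (SE), n = 2 each, limma adjusted p = 0.0139). At a mean input of 0.352 FPKM it entered the tested genes only through its RIP values, so it could only differ upwards. It also shares its strand with the overlapping gene *Tapbp*, so its value is uncertain. *Cacfd1*, whose product carries the calcium channel flower domain, had 62.3 and 96.8 FPKM in YTHDF2 RIP, against 2.72 and 3.20 FPKM in input. The RIP and input values of both genes were far apart, with every RIP value above every input value. *Adcyap1r1*, the receptor of the neuropeptide PACAP, had 62.6 and 158 FPKM in YTHDF2 RIP, against 4.48 and 8.5 FPKM in input. *Bsn*, the gene of bassoon, a scaffold of presynaptic active zones, had 20.5 and 40.6 FPKM in YTHDF2 RIP, against 1.91 and 1.93 FPKM in input. YTHDF2 RIP replicate 2 was the higher of the RIP pair for *Cacfd1*, *Adcyap1r1* and *Bsn*, and replicate 1 for *Zbtb22*. Replicate 2 was the higher in 70.6% of all tested genes.

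The letters GGACT, a common form of the m6A consensus, were searched on the sense strand within 200 nt of the annotated stop codon (GENCODE vM21, GRCm38). They stood there in 13 of the 25 genes, and in 3953 of 9839 tested coding genes with a complete coding sequence (40.2%). The share was 45.8% among higher, 29% among lower and 40.0% among the other genes. These shares cover all tested coding genes, and only 547 of 1231 higher but 513 of 517 lower genes had a mean input of at least 2 FPKM. At that input level 9.77% of genes with a match and 7.73% of those without were higher, and 6.01% and 9.22% were lower. A match is not a measured m6A site. The windows of 5 of the 13 genes are shown as examples of where the match lay, chosen after the values were seen, each with 29 nt read 5′ to 3′ on the strand of the gene and GGACT in capitals.
Zbtb22: ccttacctcggtGGACTtgtatatattct
Cacfd1: ggggtgctgtatGGACTgtctgccctggg
Adcyap1r1: ttacttcactatGGACTtcaagcaccggc
Tmem121: cgcacagacgctGGACTaactgcgcgcgg
Bsn: gggcgcagctctGGACTctgcgtataacg
The *Zbtb22* window (chr17:33918869-33918897, plus strand) lay in the 3′ UTR, 82 nt from the stop codon. The *Cacfd1* window (chr2:27018446-27018474, plus strand) lay in coding sequence of exon 4 of 5, 106 nt from it. The *Adcyap1r1* window (chr6:55497030-55497058, plus strand) lay in coding sequence of the last exon, 122 nt from it. The *Tmem121* window (chr12:113189144-113189172, plus strand) lay in the 3′ UTR, 36 nt from the stop codon, and the *Bsn* window (chr9:108103190-108103218, minus strand) in the 3′ UTR, 91 nt from it. The windows thus fall on both sides of the stop codon.

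**Figure D1:**
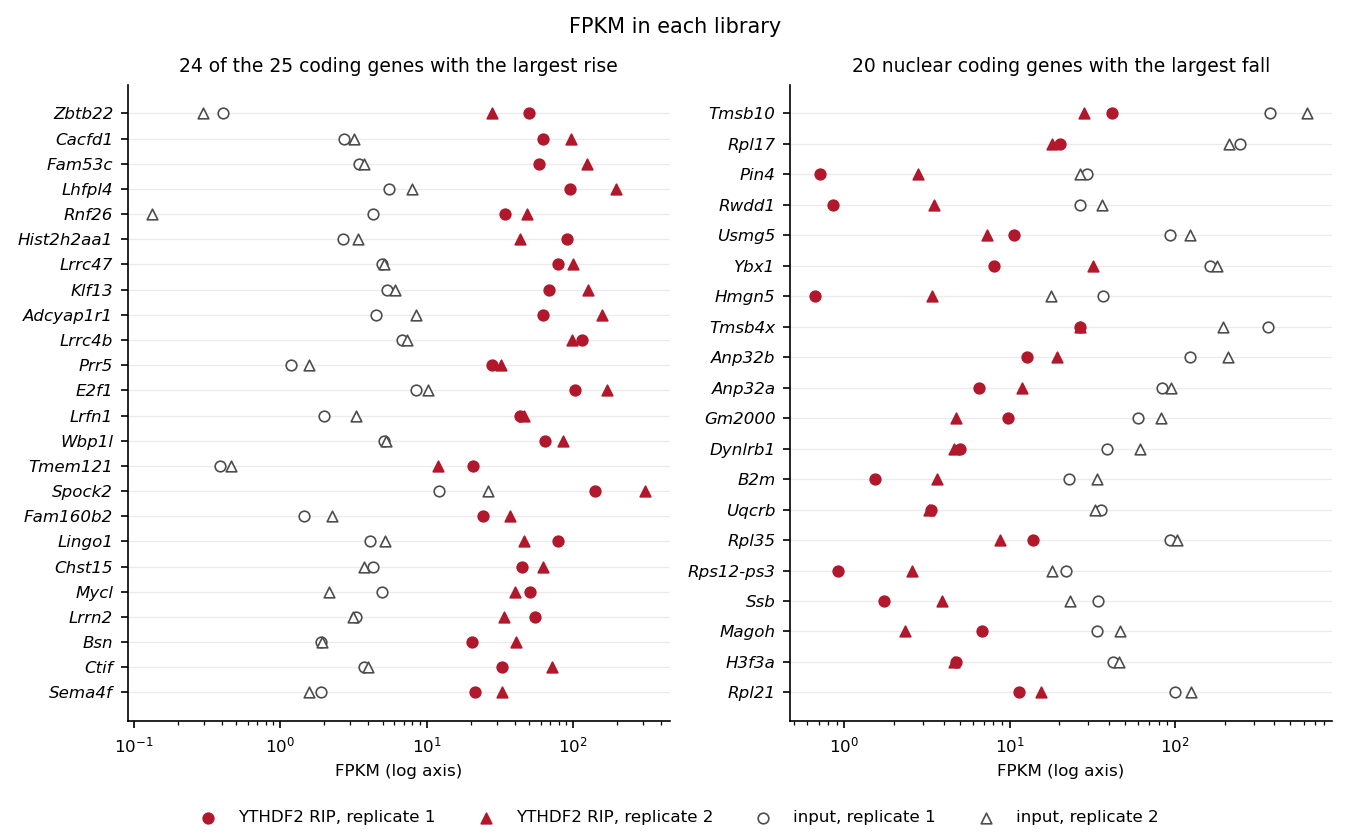
FPKM in each library (log axis) for 24 of the 25 coding genes with the largest rise (left) and the 20 nuclear coding genes with the largest fall (right) in YTHDF2 RIP. Filled red symbols are YTHDF2 RIP, open symbols input, circles replicate 1 and triangles replicate 2. In every row both filled symbols lie on 1 side of both open ones, which the rule that chose these genes required.

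Cell surface genes of neuronal contact and guidance were prominent among the rises. Of 14 leucine-rich repeat adhesion genes, whose products span the synaptic cleft or the axon surface, 8 were higher and none lower, with a median 2.19 above that of all such genes. *Lrrc4b*, a synaptic adhesion molecule, had 115 and 97.9 FPKM in YTHDF2 RIP, against 6.78 and 7.37 FPKM in input. *Lingo1*, a component of the Nogo receptor complex that restrains axon growth, had 78.3 and 46.2 FPKM in YTHDF2 RIP, against 4.08 and 5.23 FPKM in input. For both genes replicate 1 was the higher RIP library, and the groups did not overlap. *Lrfn1* and *Lrrn2* of the same family rose by 3.68 and 3.38 on the log2 scale (limma adjusted p = 0.0139 and 0.0162), and *Lrfn1* overlaps *Samd4b* on the opposite strand. Of 24 axon guidance receptors and ligands, 12 were higher and none lower (median 1.45 above all). The class 4 semaphorin *Sema4f* had 21.3 and 32.8 FPKM in YTHDF2 RIP, against 1.90 and 1.56 FPKM in input, and the netrin receptor *Unc5b* had 12.5 and 32.1 FPKM, against 1.45 and 2.09 FPKM. *Sema4f* and *Unc5b* had a mean input under 2 FPKM and are not among those 24. *Rgmb*, a repulsive guidance molecule and BMP co-receptor, had 49.3 and 34.8 FPKM in YTHDF2 RIP, against 3.64 and 2.95 FPKM in input. Values of these 3 genes were separated between RIP and input, and *Unc5b* differed most between its RIP replicates. Without YTHDF2 RIP replicate 2 the guidance count was 4 of 24, and with median-of-ratios scaling 7.

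Large cadherins showed the same direction. Of 5 non-clustered protocadherins and Fat or Dachsous cadherins with enough input, 4 were higher (median 2.11 above all), with 1 called without YTHDF2 RIP replicate 2. *Dchs1*, a planar polarity cadherin, had 40.4 and 45.2 FPKM in YTHDF2 RIP, against 2.92 and 4.07 FPKM in input, and *Fat2*, an atypical cadherin made by GCs, had 22.6 and 30.1 FPKM, against 3.21 and 7.71 FPKM. The RIP values of both lay well above input, while the input values of *Fat2* also differed from each other. Clustered protocadherins, the cell identity cadherins that share 3′ exons within a cluster, had 4 members at that input level and none was called, although both RIP values exceeded both input values in 30 of the 33 tested, beside 40.5% of all tested genes, and most of the 33 were tested only because they were high in RIP.

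Signalling genes came next. Of 10 Hedgehog pathway genes, 6 were higher and none lower (median 1.64 above all), but none of the 10 was called without YTHDF2 RIP replicate 2. *Ptch1*, the Hedgehog receptor, had 18.1 and 24.1 FPKM in YTHDF2 RIP, against 3.65 and 4.79 FPKM in input (log2 change 2.08 ± 0.46 (SE), limma adjusted p = 0.027). *Gli2*, the main activating transcription factor of the pathway, had 23.2 and 25.9 FPKM in YTHDF2 RIP, against 4.11 and 4.83 FPKM in input. *Mycn*, which drives GC precursor division as a target of the pathway, had 45.4 and 24.8 FPKM in YTHDF2 RIP, against 9.16 and 2.05 FPKM in input. Receptor and transcription factors thus stood above input alike, and *Mycn* had the widest input pair. Of 31 Wnt genes, 10 were higher and none lower (median 1.30 above all), and of 20 Notch genes 6 were higher and none lower (median 0.82 above all). *Notch2* had 13.8 and 19.0 FPKM in YTHDF2 RIP, against 1.96 and 2.78 FPKM in input, and *Numbl*, a relative of the Notch inhibitor Numb, had 13.8 and 22.3 FPKM, against 2.11 and 2.35 FPKM. *Maml1*, a coactivator of Notch, had 10.7 and 16.4 FPKM in YTHDF2 RIP, against 2.27 and 2.47 FPKM in input. Without YTHDF2 RIP replicate 2 the counts were 6 for Wnt and 1 for Notch.

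Of 36 MAP kinases and dual-specificity phosphatases, 10 were higher and none lower (median 0.91 above all). The mixed-lineage kinases *Map3k10* and *Map3k11*, which act upstream of JNK in neurons, rose by 2.79 and 2.40 on the log2 scale. *Map3k10* had 21.4 and 18.9 FPKM in YTHDF2 RIP, against 2.07 and 2.03 FPKM in input, and *Dusp8*, a phosphatase that turns off JNK and p38, had 31.7 and 30.0 FPKM, against 4.93 and 4.57 FPKM. The replicates of both genes lay close together in each group. The count was 4 of 36 with median-of-ratios scaling and 5 without YTHDF2 RIP replicate 2. Of 21 neurotrophin, FGF and receptor tyrosine kinase genes, 4 were higher, among them *Ngfr*, the p75 neurotrophin receptor, with 35.5 and 34.7 FPKM in YTHDF2 RIP, against 5.25 and 9.61 FPKM in input. Of 19 BMP and TGF-beta genes, 3 were higher, and the activin receptor *Acvr1b* had 22.2 and 31.3 FPKM in YTHDF2 RIP, against 3.54 and 3.98 FPKM in input. Each of these 2 lists had 1 member higher without YTHDF2 RIP replicate 2.

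Receptors, channels and transporters were read by family, and no difference between families was tested. Of 17 Gpr and adhesion G protein-coupled receptors, 11 were higher and none lower (median 1.82 above all), and 3 without YTHDF2 RIP replicate 2. The orphan receptor *Gpr162* had 21.1 and 19.5 FPKM in YTHDF2 RIP, against 2.37 and 1.79 FPKM in input, and the adhesion receptor *Adgrb2* had 15.7 and 16.8 FPKM, against 3.41 and 2.87 FPKM. *Gpr17*, which marks immature oligodendrocytes, had 41.0 and 57.4 FPKM in YTHDF2 RIP, against 6.71 and 7.32 FPKM in input. Oligodendrocyte lineage markers as a list, *Gpr17* included, summed to 164 and 188 FPKM in YTHDF2 RIP, against 106 and 139 FPKM in input. All 15 of them were tested and none was at 0. Of the 14 with enough input, 2 were higher and 2 lower (14.3% each way). Their part in this result was not tested. Of 16 potassium channel genes, 4 were higher (none without YTHDF2 RIP replicate 2, 10 without replicate 1). The leak channel *Kcnk9*, which helps set the resting potential of GCs, had 8.38 and 20.8 FPKM in YTHDF2 RIP, against 1.97 and 2.21 FPKM in input. Of 67 solute carriers, 3 were higher, which is 4.48% beside the 7.86% of all such genes. That count was 12 with TPM-like scaling, 6 without YTHDF2 RIP replicate 1 and none without replicate 2.

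At the synapse, 5 of 20 postsynaptic genes were higher and none lower (median 0.91 above all), and 2 without YTHDF2 RIP replicate 2. *Nlgn3* and *Nlgn2* are neuroligins, adhesion molecules of excitatory and inhibitory synapses. *Nlgn3* had 31.9 and 44.4 FPKM in YTHDF2 RIP, against 3.86 and 4.87 FPKM in input, and *Nlgn2* had 31.0 and 46.9 FPKM, against 6.25 and 6.52 FPKM. *Dlgap3* and *Shank2*, scaffolds of the postsynaptic density, rose by 2.28 and 1.97. Of 24 presynaptic genes 1 was higher (4.17%) and none lower. Their median was 0.27 above all, and -0.011 relative to all without YTHDF2 RIP replicate 2. *Bsn*, *Syt2* and *Nrxn2* rose, with less than 2 FPKM of mean input each. The difference between both lists was not tested.

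Genes of protein glycosylation and ubiquitination rose in part. Of 39 Golgi glycosyltransferases, 13 were higher and none lower (median 1.26 above all), and 6 without YTHDF2 RIP replicate 2. *Chst15*, a sulfotransferase of chondroitin sulfate, had 44.9 and 61.8 FPKM in YTHDF2 RIP, against 4.27 and 3.73 FPKM in input, and overlaps *Fgfr2* on the same strand. *Chsy1*, which builds the chondroitin chain, had 29.6 and 32.9 FPKM in YTHDF2 RIP, against 4.90 and 5.95 FPKM in input. *Mgat3* and *Mgat5b*, which act on N-linked and O-mannosyl glycans, rose by 2.38 and 2.60. Of 40 Kelch-like and F-box genes, whose products pick substrates for cullin ubiquitin ligases, 12 were higher and none lower (median 0.88 above all), and 6 without YTHDF2 RIP replicate 2. *Klhl9*, a gene with 1 exon, had 60.4 and 100.0 FPKM in YTHDF2 RIP, against 12.5 and 10 FPKM in input. Both of its RIP values were above both input values. The subunits of the proteasome, which degrades the tagged proteins, moved the other way: of 32 none was higher and 9 were lower (median -1.05 relative to all). *Psma4*, a subunit of the catalytic core, had 2.2 and 2.88 FPKM in YTHDF2 RIP, against 17.1 and 25.2 FPKM in input, and *Psmc1*, an ATPase of the regulatory cap, had 10.8 and 7.57 FPKM, against 41.6 and 77.2 FPKM. The count of lower subunits was 2 with TPM-like scaling and also 2 without YTHDF2 RIP replicate 2.

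Among transcription factors, the zinc finger genes gave most calls by number. Of 137 Zfp genes, 24 were higher and 1 lower (17.5% and 0.73%, median 0.66 above all), and without YTHDF2 RIP replicate 2 the counts were 7 and 4. *Zfp41* had 28.0 and 41.3 FPKM in YTHDF2 RIP, against 4.73 and 3.61 FPKM in input. Of 19 Zbtb genes 4 were higher and none lower. Of 33 transcription factors of the GC lineage, 3 were higher and none lower (9.09%, near the share of all such genes). *Nhlh1*, a helix-loop-helix factor of newborn neurons, had 134 and 219.9 FPKM in YTHDF2 RIP, against 16.4 and 22.1 FPKM in input, and *En2*, a homeobox factor of cerebellar patterning, had 23.6 and 23.4 FPKM, against 5.22 and 4.70 FPKM. The RIP values of both were apart from input. *Neurod1*, the factor that drives GC differentiation, had 264 and 318 FPKM in YTHDF2 RIP, against 183 and 224 FPKM in input, and did not pass the test (limma adjusted p = 0.611). Of 16 GC markers, the axonal adhesion gene *Cntn2* was higher, with 105 and 104 FPKM in YTHDF2 RIP, against 15.3 and 19.0 FPKM in input. *Stmn2*, whose product binds tubulin in growing axons, was lower, with 7.12 and 8.48 FPKM, against 26.9 and 28.3 FPKM. Of 35 BAF and other chromatin remodelling genes 7 were higher (none without YTHDF2 RIP replicate 2), such as *Bcl7a*, a BAF subunit, with 32.7 and 47.3 FPKM in YTHDF2 RIP, against 7.70 and 7.24 FPKM in input. Of 43 histone-modifying enzymes 4 were higher and 2 lower (none and 3 without YTHDF2 RIP replicate 2, 7 and none without replicate 1). The share of these enzymes higher in the main fit was 9.3%, near the 7.86% of all such genes. *Kdm4a*, a demethylase of histone H3, had 27.9 and 53.7 FPKM in YTHDF2 RIP, against 3.63 and 5.95 FPKM in input. By contrast *Kmt5a*, which methylates histone H4, had 1.12 and 3.75 FPKM, against 11.3 and 8.56 FPKM.

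**Figure D2:**
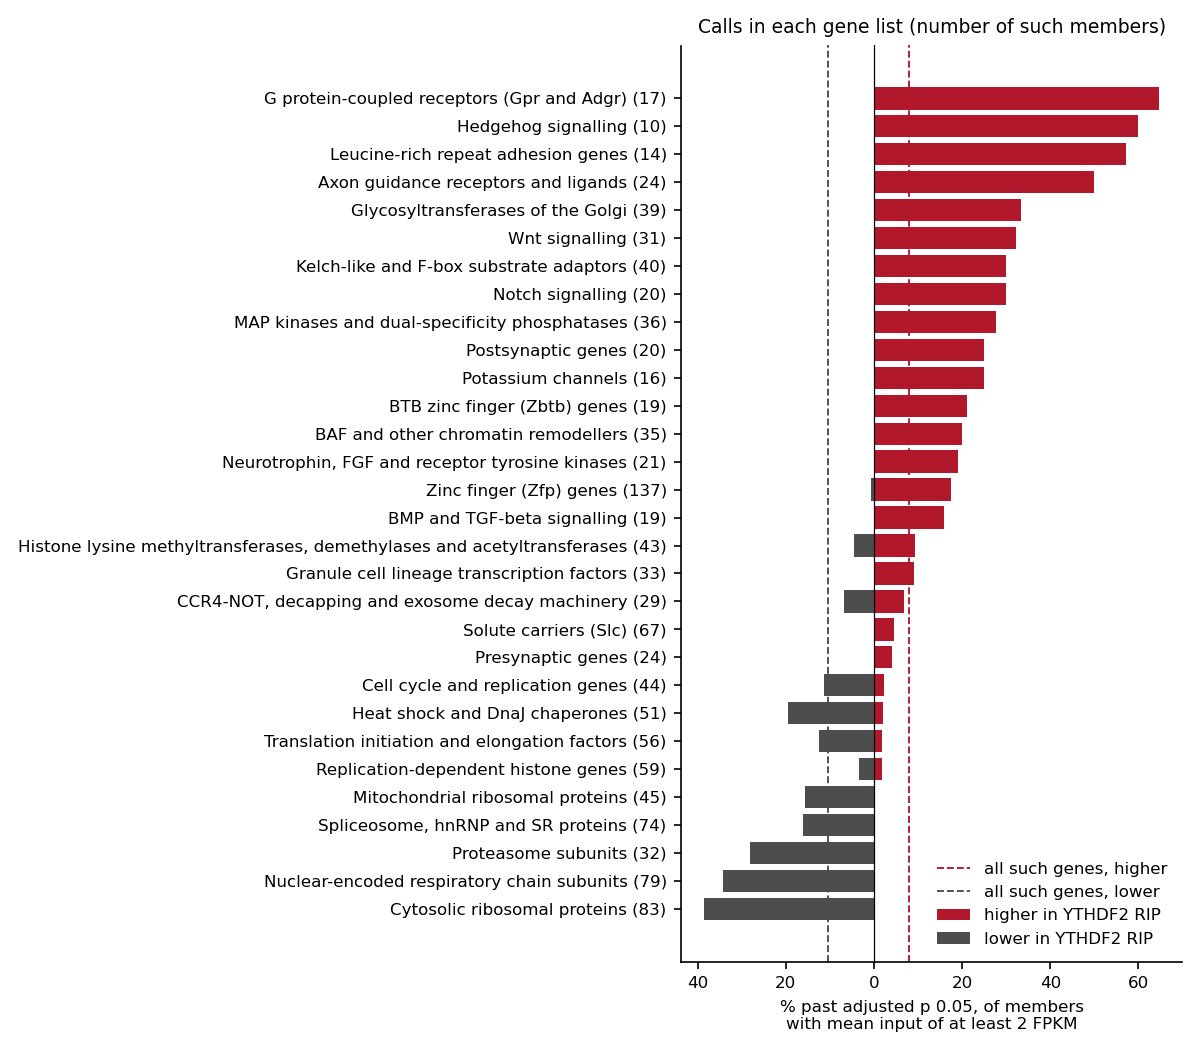
Percentage of members higher (red, right) or lower (grey, left) in YTHDF2 RIP than in input in each gene list, over members with a mean input of at least 2 FPKM (number in brackets). Dashed lines give the same shares over all 7149 such genes, 7.86% higher and 10.5% lower. Of the lists drawn, the bars reach furthest right for G protein-coupled receptors (11 of 17 members) and Hedgehog signalling (6 of 10), and furthest left for cytosolic ribosomal proteins (32 of 83) and the respiratory chain (27 of 79).

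The mRNAs of the m6A machinery were called in part, and no difference between readers, writers and erasers was tested. Of the readers, *Ythdf1* had 29.1 and 26.6 FPKM in YTHDF2 RIP, against 6.65 and 6.74 FPKM in input (log2 change 1.90 ± 0.46 (SE), limma adjusted p = 0.0321). The transcript of the precipitated protein, *Ythdf2*, had 11.7 and 18.9 FPKM in YTHDF2 RIP, against 5.71 and 5.66 FPKM in input (log2 change 1.25, adjusted p = 0.0669 in limma, and 0.0466 with the replicate block). *Ythdf3* had 10.9 and 24.4 FPKM in YTHDF2 RIP, against 6.02 and 5.48 FPKM in input (log2 change 1.37, adjusted p = 0.0787 in limma, and 0.0361 with the block). All 3 cytoplasmic readers therefore had both RIP values above both input values, as had 40.5% of all tested genes, with 1 past the test without the block. The nuclear reader *Ythdc1* had 0.556 and 2.94 FPKM in YTHDF2 RIP, against 3.38 and 3.69 FPKM in input, and did not pass (adjusted p = 0.233 in limma). Of the erasers, *Alkbh5* had 27.3 and 73.3 FPKM in YTHDF2 RIP, against 6.13 and 5.22 FPKM in input, whereas *Fto* had 3.99 and 2.19 FPKM, against 2.26 and 3.24 FPKM. The *Alkbh5* values were well separated (log2 change 2.78 ± 0.57 (SE), limma adjusted p = 0.0226), and those of *Fto* overlapped. Neither *Ythdf1* nor *Alkbh5* was called without YTHDF2 RIP replicate 2, nor *Ythdf1* without replicate 1 or with median-of-ratios scaling.

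Of the writers, the RNA-binding adaptors were high in RIP. *Rbm15b* had 74.0 and 96.6 FPKM in YTHDF2 RIP, against 11.3 and 11.5 FPKM in input, and *Rbm15* had 10 and 31.2 FPKM, against 3.02 and 3.79 FPKM. *Pcif1*, which methylates the cap-adjacent adenosine, had 7.27 and 10.7 FPKM in YTHDF2 RIP, against 2.31 and 2.53 FPKM in input. These 3 passed the test, with changes of 2.79, 2.10 and 1.52, and *Rbm15b* alone of them passed without YTHDF2 RIP replicate 2. *Wtap*, the adaptor of the core complex, had 8.60 and 9.76 FPKM in YTHDF2 RIP, against 4.14 and 4.03 FPKM in input, and did not pass (adjusted p = 0.101 in limma). The core subunit *Mettl14* had 0.435 and 1.67 FPKM in YTHDF2 RIP, against 2.52 and 2.36 FPKM in input, and did not pass either (adjusted p = 0.15). *Virma*, *Cbll1*, *Mettl16* and *Zc3h13* did not pass, and *Mettl3*, *Mettl5*, *Zcchc4* and *Ythdc2* were under the filter of 1 FPKM. Among 29 genes of the decay machinery that YTHDF2 works with, 2 were higher and 2 lower (6.9% each, beside 7.86% and 10.5% of all such genes), and none was called without YTHDF2 RIP replicate 2. Their median was -0.062 relative to all, and 0.19 without YTHDF2 RIP replicate 1. *Ddx6*, a helicase of decapping and P-bodies, had 45.6 and 112 FPKM in YTHDF2 RIP, against 16.0 and 17.3 FPKM in input, and *Btg2*, an antiproliferative protein that recruits the deadenylase, had 28.9 and 37.2 FPKM, against 7.36 and 6.13 FPKM. The 2 lower, *Exosc1* and *Exosc9*, named after their values were seen, encode subunits of the RNA exosome and fell by 1.32 and 1.18 on the log2 scale. *Exosc1* had 1.87 and 1.57 FPKM in YTHDF2 RIP, against 7.02 and 4.74 FPKM in input, and *Exosc9* had 0.419 and 0.740 FPKM, against 2.11 and 3.08 FPKM.

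**Figure D3:**
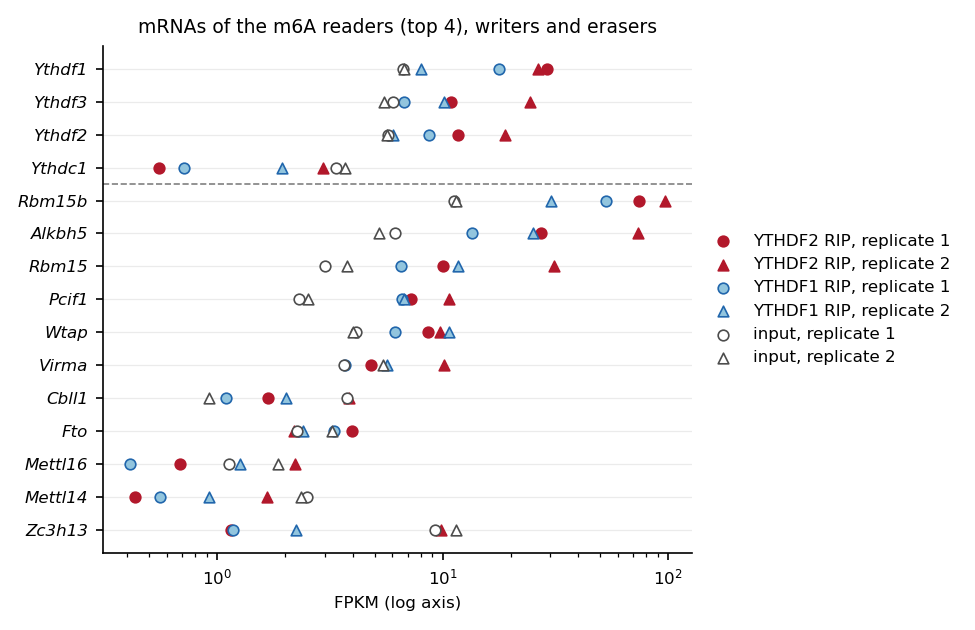
FPKM of m6A reader mRNAs (top 4 rows) and writer and eraser mRNAs (lower rows) in each library, log axis. Red symbols are YTHDF2 RIP, blue YTHDF1 RIP and open symbols input, circles replicate 1 and triangles replicate 2. *Rbm15b* at 74.0 and 96.6 FPKM and *Alkbh5* at 27.3 and 73.3 FPKM in YTHDF2 RIP lie furthest above their input values.

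Several groups of transcripts of basic cell functions were low in YTHDF2 RIP. Calls also varied with the input level. In the highest of 5 equal bins of coding genes by input (7.19 to 610 FPKM), 4.27% were higher and 16.8% lower. Tested members had a median input of 32.2 FPKM in the ribosomal list and 10.2 FPKM in the respiratory chain list. In the spliceosome list it was 9.81 FPKM. The part of input level in these falls was not tested. Of 83 cytosolic ribosomal protein genes none was higher and 32 were lower (median -1.28 relative to all). *Rpl35* had 13.9 and 8.77 FPKM in YTHDF2 RIP, against 93.4 and 102 FPKM in input, and *Rps27l* had 1.84 and 1.79 FPKM, against 19.4 and 19.5 FPKM. Both RIP values were below both input values in 82 of the 84 tested, beside 25.4% of all tested genes. In the bin of highest input the same held for 979 of 1968 coding genes. Of 79 nuclear genes of the respiratory chain none was higher and 27 were lower (median -0.92). *Uqcrb*, a subunit of complex III, had 3.33 and 3.27 FPKM in YTHDF2 RIP, against 35.8 and 32.9 FPKM in input, and *Cycs*, cytochrome c, had 1.37 and 2.07 FPKM, against 13.0 and 14.5 FPKM. The replicates lay close in both groups. Of 35 genes of the mitochondrial genome none was higher and 18 were lower (median -2.66), and *mt-Cytb* had 16.9 and 138 FPKM in YTHDF2 RIP, against 2983 and 2228 FPKM in input. With TPM-like scaling, under which 2241 genes were higher and 227 lower, 15 ribosomal and 12 respiratory chain genes were lower and none was higher. The counts were 13 and 11 without YTHDF2 RIP replicate 2, and 21 and 24 without replicate 1.

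Of 74 genes of the spliceosome, hnRNPs and SR proteins none was higher and 12 were lower (median -0.69), and 6 without YTHDF2 RIP replicate 1. The share lower in the main fit, 16.2%, was near the 16.8% of coding genes in the bin of highest input. With TPM-like scaling 1 was higher and 5 lower, and with median-of-ratios scaling 25 were lower. The snRNP protein genes *Snrpf*, *Snrpd1*, *Snrpd3* and *Snrpb2* fell by 2.41 to 2.93 on the log2 scale. *Snrpd3* had 2.59 and 3.94 FPKM in YTHDF2 RIP, against 19.5 and 27.8 FPKM in input. Of 51 chaperones 1 was higher and 10 lower (median -0.71), but 5 and 2 with TPM-like scaling and 1 and 20 with median-of-ratios scaling. *Hsp90b1* and *Hspd1*, chaperones of the endoplasmic reticulum and the mitochondrion, fell by 2.51 and 2.03, whereas the stress-induced *Dnajb1* had 42.5 and 27.3 FPKM in YTHDF2 RIP, against 3.59 and 3.71 FPKM in input. Of 56 translation factors 1 was higher and 7 were lower (1.79% and 12.5%, beside 7.86% and 10.5% of all such genes). The 1 higher was *Eif4e2*, a cap-binding protein that represses translation. Among the lower, *Eef1b2* had 4.28 and 4.09 FPKM in YTHDF2 RIP, against 23.2 and 20.5 FPKM in input. The translation factor counts were 3 and 1 with TPM-like scaling, 1 and 12 with median-of-ratios scaling, and 1 and 4 without YTHDF2 RIP replicate 1. Of 44 cell cycle genes 1 was higher and 5 lower, but 2 and none with TPM-like scaling, 1 and 10 with median-of-ratios scaling, and 1 and 3 without YTHDF2 RIP replicate 2. In the main fit 2.27% of the cell cycle genes were higher and 11.4% lower, the latter near the 10.5% of all such genes. *E2f1*, a transcription factor of S phase entry, had 102 and 171 FPKM in YTHDF2 RIP, against 8.44 and 10.2 FPKM in input. Cyclin A (*Ccna2*) had 6.93 and 7.77 FPKM, against 33.1 and 26.7 FPKM. Falls beyond these lists included *Tmsb10*, an actin-sequestering thymosin, with 41.5 and 28.3 FPKM in YTHDF2 RIP, against 375 and 633 FPKM in input, and *Ybx1*, a cold-shock domain RNA-binding protein, with 8.11 and 31.9 FPKM, against 164 and 181 FPKM. Many of these short, abundant mRNAs have processed pseudogene copies, 188 of 391 pseudogenes at this input level were themselves lower, and reads of gene and copy may have been split between them.

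Replication-dependent histone mRNAs, which have 1 exon and no poly(A) tail, gave few calls. Of 59 such genes 1 was higher and 2 lower (median -0.66), and the 1 higher, *Hist2h2aa1*, has a near-identical copy, which makes it uncertain. The lower count was 5 without YTHDF2 RIP replicate 1, none without replicate 2, 5 with median-of-ratios scaling and 11 without the intensity trend in limma. *Hist1h3f* had 17.7 and 12.1 FPKM in YTHDF2 RIP, against 55.1 and 61.8 FPKM in input, and fell by 1.93. Among noncoding RNAs, *Peg13*, a long RNA expressed from the paternal allele, had 134 and 164 FPKM in YTHDF2 RIP, against 12.6 and 17.4 FPKM in input. The small Cajal body RNA *Scarna2* had 542 and 2251 FPKM in YTHDF2 RIP, against 13.9 and 20.1 FPKM in input, with replicate 2 far above replicate 1 in RIP, and 2 of 5 listed Cajal body RNAs with enough input were higher. Box C/D and U3 RNAs had 6 of 21 lower and none higher. Copies of U3 are near-identical, so their single values are not given.

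Transcript structure varied with the change. Coding genes were split into 5 equal bins by the number of exons per kb of coding sequence, over 9839 genes with a complete coding sequence in GENCODE vM21. From the fewest to the most exons per length, 24.5%, 12.1%, 4.48%, 3.65% and 2.56% of genes with a mean input of at least 2 FPKM were higher, and 1.79%, 3.24%, 5.83%, 7.58% and 18.4% were lower. Spearman's rho of the change with exon density was -0.47 across the 9839 genes, which are not independent replicates, and -0.40 and -0.47 in replicate pairs 1 and 2. Over the same 9839 genes rho was -0.045 for the number of exons alone and 0.295 for coding length. The part of each in the trend with exon density was not tested. Of these genes 1169 had a mean input under 1 FPKM and were tested only through their RIP values. The bin of fewest exons held 424 of them and that of most 105, so the filter itself affects rho. With a mean input of at least 2 FPKM, the median relative to all such genes ran from 0.875 to -0.40 in pair 1 and from 1.09 to -0.53 in pair 2. Genes with a longest internal exon of at least 1 kb were higher in 87 of 415 cases (21%) and lower in 3, against 4.16% higher and 14.1% lower where it was under 200 nt. Other genes with 1 exon than the histone genes were higher in 28 of 142 cases (19.7%) and lower in 13 (9.15%). The difference from the histone genes was not tested. From the bin of shortest transcripts to that of longest 1.36%, 4.72%, 9.66%, 14.2% and 13.9% were higher.

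GC content of the transcript moved with the change as well, and more so in replicate 1. The bin lowest in GC had 0.897% of genes higher and the bin highest in GC 19.4%. Spearman's coefficient was 0.57 in replicate pair 1 and 0.17 in pair 2, while for transcript length it was 0.16 in pair 1 and 0.53 in pair 2. Over all tested coding genes, exon density was thus the only one of these 3 features with a similar rho in both pairs. Genes with a mean input under 1 FPKM are included, 96 in the bin lowest in GC and 445 in the highest. With a mean input of at least 2 FPKM, the median relative to all such genes ran by GC from -0.82 to 0.98 in pair 1. In pair 2 it ran from -0.05 to 0.40. By length it ran from -0.30 to 0.30 in pair 1 and from -0.86 to 1.01 in pair 2. Within the bin of lowest exon density, 35.0% of 509 genes over the median GC were higher and 14.9% of 552 up to the median. Within the bin of highest exon density the shares were 5% of 620 and 0.811% of 863, and 10% and 24.4% were lower. The gene groups differ in the same features: leucine-rich repeat adhesion genes had a median of 1.29 exons per kb of coding sequence, against 7.16 in all genes, ribosomal protein genes 11 with a median length of 869 nt, presynaptic genes 7.41 and postsynaptic genes 5.12. The part of these features in the groups' changes was not tested.

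**Figure D4:**
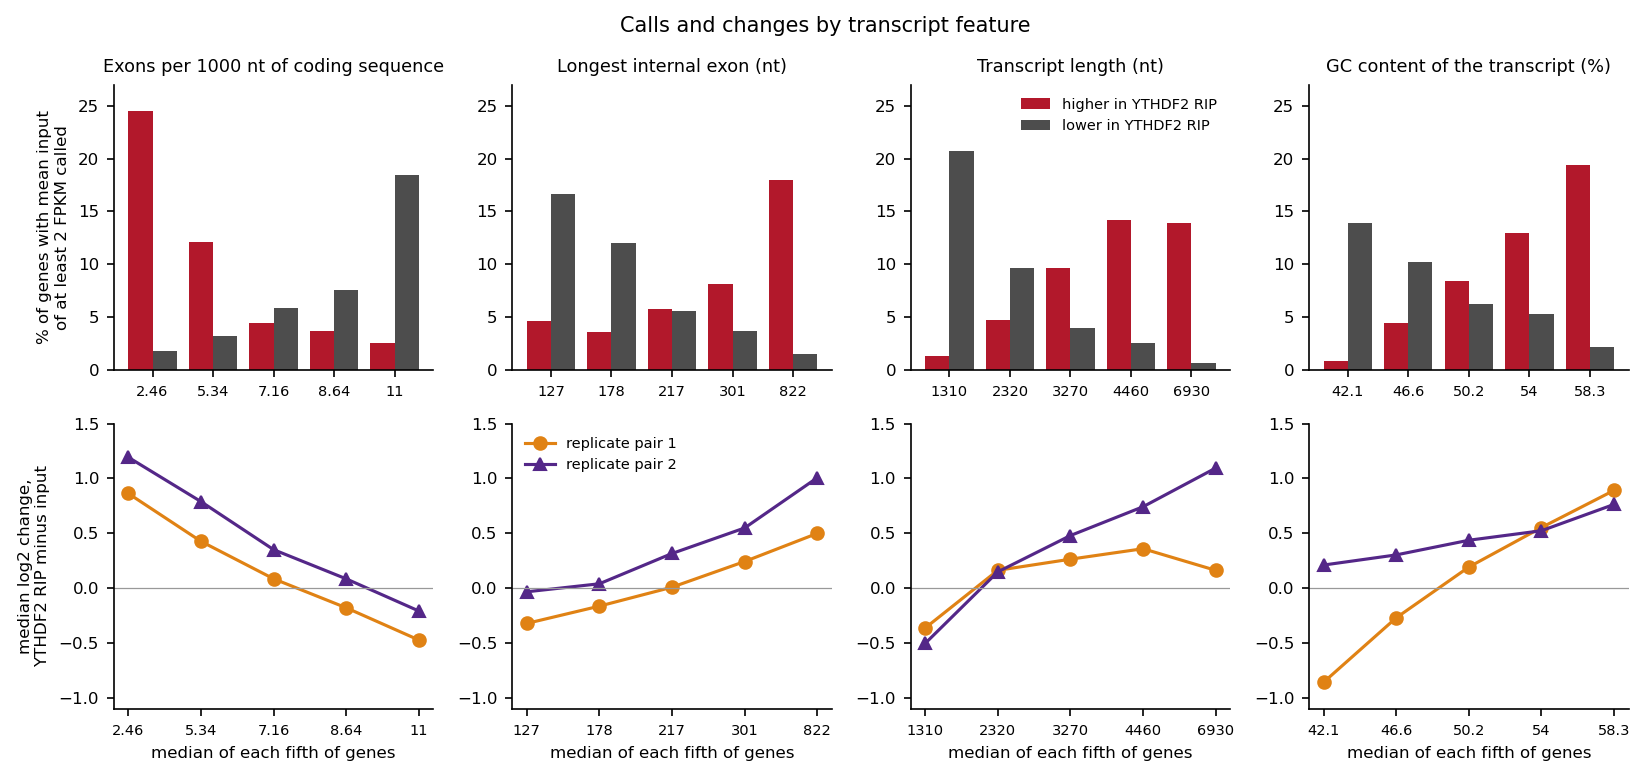
Top row, percentage of coding genes with a mean input of at least 2 FPKM that were higher (red) or lower (grey) in YTHDF2 RIP, by 5 equal bins of 4 transcript features. Bottom row, median log2 change of all tested coding genes per bin in replicate pair 1 (circles) and pair 2 (triangles). The bottom row includes genes with a mean input under 1 FPKM, which were tested only through their RIP values. The share higher falls with exon density, 24.5% in the lowest bin to 2.56% in the highest, and both pairs slope alike there, while GC slopes mainly in pair 1 and length in pair 2.

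The RIPs with both antibodies were set against each other in the same fit, and 1 gene (0.00891%) was called. *Pcdhgb8*, a polymorphic pseudogene of the gamma protocadherin cluster, had 17.2 and 17.5 FPKM in YTHDF2 RIP, 0.337 and 0.272 FPKM in YTHDF1 RIP and 0.169 and 0.219 FPKM in input. YTHDF2 RIP exceeded YTHDF1 RIP by 3.81 on the log2 scale (limma adjusted p = 0.0174), and both YTHDF1 RIP values lay near input. It entered the tested genes only through its YTHDF2 RIP values. Genes of this cluster share 3′ exons, so its value is uncertain. At an unadjusted p under 0.05 in limma, 394 genes were higher and 77 lower in YTHDF2 RIP than in YTHDF1 RIP, together 4.2% of those tested and under the 5% that such a threshold passes where nothing differs. The unadjusted higher count was 2244 without YTHDF2 RIP replicate 1 and 103 without replicate 2. In the fit with the replicate number as a block, 721 genes rose and 116 fell by the same unadjusted threshold in limma, together 7.46% and so above 5%. With the pairing crossed, an alternative chosen after seeing the data, the share was 9.91%. In each of these fits 1 gene was called after adjustment. Whether the share exceeded 5% thus depended on the fit, so it does not show how far the antibodies differ. Both antibodies were set against the same input libraries, so a likeness of their changes is not independent. *Alkbh5* had 27.3 and 73.3 FPKM in YTHDF2 RIP and 13.6 and 25.3 FPKM in YTHDF1 RIP, and *Lrrc47* had 79.0 and 99.2 FPKM and 13.7 and 17.3 FPKM. For both genes both YTHDF2 RIP values were above both YTHDF1 RIP values without passing the test between the antibodies.

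Lists that the study drew up as YTHDF2 targets or knockdown responses were read in the same way. Of its 11 candidate transcripts, 8 were tested and 6 were higher, all with less than 2 FPKM of mean input, and since the study chose them on these libraries the count is not independent evidence. A mean input under 1 FPKM was found in 6 of the 8 tested, *Wnt5a*, *Akna* and *Htr1b* among them. Such genes entered the tested genes only through their RIP values, so they could only differ upwards. All 8 had both RIP values above both input values. *Wnt5a*, a secreted Wnt ligand that steers axons, had 4.0 and 8.41 FPKM in YTHDF2 RIP, against 0.811 and 0.849 FPKM in input (log2 change 1.91 ± 0.41 (SE), limma adjusted p = 0.0249). *Akna* had 3.04 and 5.08 FPKM in YTHDF2 RIP, against 0.76 and 0.587 FPKM in input, and *Htr1b*, a serotonin receptor, had 2.32 and 7.18 FPKM, against 0.588 and 0.819 FPKM, which missed the threshold (limma adjusted p = 0.0507, and 0.00626 with the block). Both RIP values of these 3 genes were above both input values, with replicate 2 the higher, and none of the 3 was called without it. Of mRNAs that the study listed as higher after YTHDF2 knockdown, 31 had enough input here, of which 4 were higher and 2 lower in YTHDF2 RIP (median -0.34 relative to all). Of those listed as lower after knockdown 50 had, of which 5 were higher and 1 lower (median 0.52). Without YTHDF2 RIP replicate 2 the counts were 1 and 1 in the first list and 1 and 2 in the other, with TPM-like scaling 4 and none against 13 and 1, and with median-of-ratios scaling 2 and 5 against 3 and 3. Of both lists only entries with an Ensembl identifier were used (490 and 328). These shares, 12.9% and 10% higher, stand beside 7.86% of all such genes and were not tested against each other.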

How the data were processed

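Input and RIP libraries (EZ-Magna RIP kit) of 6 samples were deposited as 1 table of FPKM per gene identifier, computed by the authors. The methods name STAR and Cufflinks with GRCm38, the submitters' notes Bowtie 0.12.2, and which of them made the table is not settled. No scaling between libraries is stated, strand use in counting is unstated, and the study's text places the animals in a span of days up to postnatal day 8.

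Genes averaging 1 FPKM or more across the 4 YTHDF2 RIP and input libraries were compared on log2(FPKM + 1) with limma 3.58.1 (R 4.3.3, 1 fit of 3 groups, 3 residual degrees of freedom, intensity trend), tested on simulated data. Of low values, 39.7% to 46.9% lay within 0.1 of a whole step, where spacing alone gives 20%, so counts of reads could not be rebuilt, depth is unknown and count-based tests were left out. Identifiers were matched to GENCODE vM21. The series describes an input and a RIP for each replicate, so replicate numbers were read as pairs, although deviations of same-numbered libraries correlated at -0.14 for YTHDF2 RIP and input and at 0.69 for YTHDF2 RIP and YTHDF1 RIP. Alternatives changed the pseudocount (0.1), the filter (5 FPKM, none), the scaling, the libraries fitted, the block and the variance trend, and left out each library.

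Named genes were those past the threshold with the largest changes (25 coding rises, 20 nuclear coding falls, 8 of other biotypes each way), up to 4 called genes of each list, all m6A machinery and candidate genes, GC markers and the most abundant coding genes. A gene among the largest rises is not reported here. Members and lists were chosen with earlier results of these data known.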

Additional observations from a re-analysis of the deposited data

Results flagged for a closer look

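*Pcdhgb8* was the 1 gene whose change differed between the antibodies by the test of the difference itself. YTHDF2 RIP exceeded YTHDF1 RIP by 3.81 on the log2 scale in limma with Benjamini-Hochberg adjustment (adjusted p = 0.0174, n = 2 each), with both YTHDF2 RIP libraries above both YTHDF1 RIP libraries. The call was lost with a pseudocount of 0.1, where the lowest adjusted p of any gene was 0.0655, and when YTHDF2 RIP replicate 2, YTHDF1 RIP replicate 2 or either input library was left out. The gene averaged 0.194 FPKM in input and entered the tested genes only through its YTHDF2 RIP values. The sharing of reads between genes of its cluster was not tested.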

How the results depend on the processing

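Counts of genes higher and lower in YTHDF2 RIP than in input (1312 and 758) depended on the processing. They were 814 and 505 of 4091 genes with a filter of 5 FPKM, and 0 and 0 of 30615 genes with no filter in limma, with 3435 and 2089 before adjustment. They were 2241 and 227 with TPM-like scaling (90.8% of calls higher, beside 63.4%), 1202 and 1109 with scaling to nuclear coding genes (52.0%), and 1025 and 1326 with median-of-ratios scaling (43.6%), with the median change of all genes at 0.76, 0.08 and 0.00 in place of 0.23. With the replicate block they were 2168 and 1219, which included all 1312 and 758, and with the pairing crossed, an alternative chosen after seeing the data, 2549 and 1487. Without a test, 2462 genes exceeded input over 2-fold in both same-numbered pairs and 1217 were under 0.5 of it. Leaving out 1 library gave 0 to 1822 genes higher and 0 to 703 lower, with both lowest values on leaving out an input library.

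The single gene higher in YTHDF2 RIP than in YTHDF1 RIP became 0 with a pseudocount of 0.1, with the filter of 5 FPKM, with no filter, with TPM-like scaling and in a fit of the 4 RIP libraries, and was 0 to 1 on leaving out 1 library. None of 84 called genes named here changed sign under any alternative, and of the 12 not called *Cbll1*, *Fto* and *Mettl16* did, at adjusted p of 0.493 or more in limma. Of the 84, leaving out input replicate 1 ended 83 calls, input replicate 2 all 84, and YTHDF2 RIP replicate 2 ended 27, *Alkbh5*, *Ythdf1*, *Ptch1*, *Gli2*, *Mycn*, *Kdm4a*, *Ddx6*, *Numbl*, *Kcnk9*, *Ngfr*, *Psmc1* and *Wnt5a* among them. Without YTHDF2 RIP replicate 1 the calls of *Ythdf1*, *Mycn*, *Dnajb1*, *Kmt5a*, *Hspd1*, *Stmn2* and *Dlgap3* ended. On leaving out 1 library the median of presynaptic genes ran from -0.011, without YTHDF2 RIP replicate 2, to 0.62, and that of the decay machinery from -0.062 to 0.19, without YTHDF2 RIP replicate 1. With median-of-ratios scaling 1 Wnt, 1 Notch, 3 chromatin remodelling and 2 Kelch-like or F-box genes were lower, where none was before. Depth is unknown, so the precision of low values cannot be given.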
